A study of Mus musculus with 2 samples.

Results

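The genes described here are the Wnt ligands, their receptors and secreted antagonists, and the core proteins that carry the Wnt signal to the nucleus. They were chosen by name, as every gene probe whose name in the array files is Wnt, Fzd, Sfrp, Frzb, Dkk, Wif1, Lrp5, Lrp6, Dvl, Axin, Ctnnb1, Lef1 or Tcf7 with its family number. This gave 50 of 27962 gene names, measured by 71 of 41174 probes and 89 spots on each array. The study set the RNA of adipocyte-derived microvesicles (ADMs), small membrane vesicles released into the medium, against the RNA of the donor cells. The donor cells belong to 3T3-L1 (CL-173), a mouse preadipocyte line, grown in DMEM with 10% FCS. They were turned into adipocytes with 0.5 mM 3-isobutyl-1-methylxanthine, 0.25 µM dexamethasone and 10 µg/ml insulin. On day 11 of differentiation the vesicles were collected from the culture medium by ultracentrifugation, and the cells were harvested. There were 2 replicates, which the labels call biological, each a pair of 1 ADM RNA and 1 cell RNA on the same 2-colour array, with ADM RNA in Cy5 in replicate 1 and in Cy3 in replicate 2. Every direction below rests on these dye labels, and the terms vesicle-labelled and cell-labelled RNA are used for that reason. Nothing in the labels says that the replicates came from separate cultures. The p-values rest on the spread between these 2 arrays, with each probe's variance moderated by that of all probes tested. Whether they cover variation between cultures is not known, and the small number of arrays limits precision throughout.

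Wnt proteins are secreted, lipid-modified ligands that bind Frizzled receptors (Fzd) together with the coreceptors Lrp5 or Lrp6. In the canonical branch the signal passes through Dishevelled (Dvl), which halts the Axin-based complex that destroys beta-catenin (Ctnnb1), and beta-catenin then enters the nucleus and works with the Tcf and Lef factors. Sfrp proteins, Frzb and Wif1 bind Wnt ligands outside the cell, while Dkk proteins act on Lrp5 and Lrp6. Canonical Wnt signalling is known to hold preadipocytes undifferentiated, with Wnt10b as the best-known inhibitory ligand.

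In both RNAs the adipocyte label was borne out by its markers. In each array, 11 of 11 adipocyte marker genes stood well above background in the vesicle-labelled RNA, and 10 of 11, all but leptin, did so in both arrays for the cell-labelled RNA. Preadipocyte and fibroblast markers were also present, 10 of 10 in the vesicle-labelled and 9 of 10 in the cell-labelled RNA, all but Pdgfra in the latter. Their summed net signal was 300923 and 112391 scanner units in the vesicle-labelled RNA of replicates 1 and 2, and 1318 and 4600 in the cell-labelled RNA, and their part in the results below was not tested. No endothelial (0 of 5) or epithelial (0 of 5) marker was well above background on both arrays in either RNA, and of the other lists only Cd14 and Cd68 in the vesicle-labelled RNA and Cd14 and Ttn in the cell-labelled RNA were. Signal differed widely between the RNAs, with a 99th percentile of net probe signal of 44583 and 16957 scanner units in the vesicle-labelled RNA against 637 and 2252 in the cell-labelled RNA. Net signal is the mean intensity of a spot minus the median of its local background. In such bulk RNA, the number of vesicles or cells and the RNA in each cannot be told apart.

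In the vesicle-labelled RNA the scanner software flagged 20 of the 50 Wnt genes as well above background on both arrays, and in the cell-labelled RNA 14. Over all gene names these shares were 46.4% and 29.3%, close to the 40% and 28% of the Wnt genes. In all, 10 Wnt genes were seen in both RNAs on both arrays (26.4% of all gene names). A further 6 were seen on both arrays for the vesicle-labelled RNA and on neither for the other (9.2% of all gene names), namely Wnt5a, Wnt9a, Fzd3, Lrp6, Sfrp2 and Lef1. The opposite held for 2, Wnt7b and Fzd10 (2.15% of all gene names). No probe was well above background in any RNA or array for 22 genes (41.4% of all gene names). The arrays differed in what they showed of the cell-labelled RNA, with 14 Wnt genes well above background in replicate 1 and 21 in replicate 2, against 23 and 20 for the vesicle-labelled RNA.

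The counts differed by role. Receptors had the highest share in the vesicle-labelled RNA, with 9 of 12 in the vesicle-labelled and 5 of 12 in the cell-labelled RNA on both arrays. Of 19 ligands, 4 were seen in each RNA, of 6 genes of the cytoplasmic relay 4 in each, and of 3 nuclear factors 2 and 1. Of 10 secreted antagonists, 1 was seen in the vesicle-labelled RNA, against 0 in the cell-labelled RNA. Over all gene names the shares were 46.4% and 29.3%. These are counts of signal over background for probes of unequal strength, and a gene counts through any of its probes, whose number per gene differs. No test was made between the roles.

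**Figure D1:**
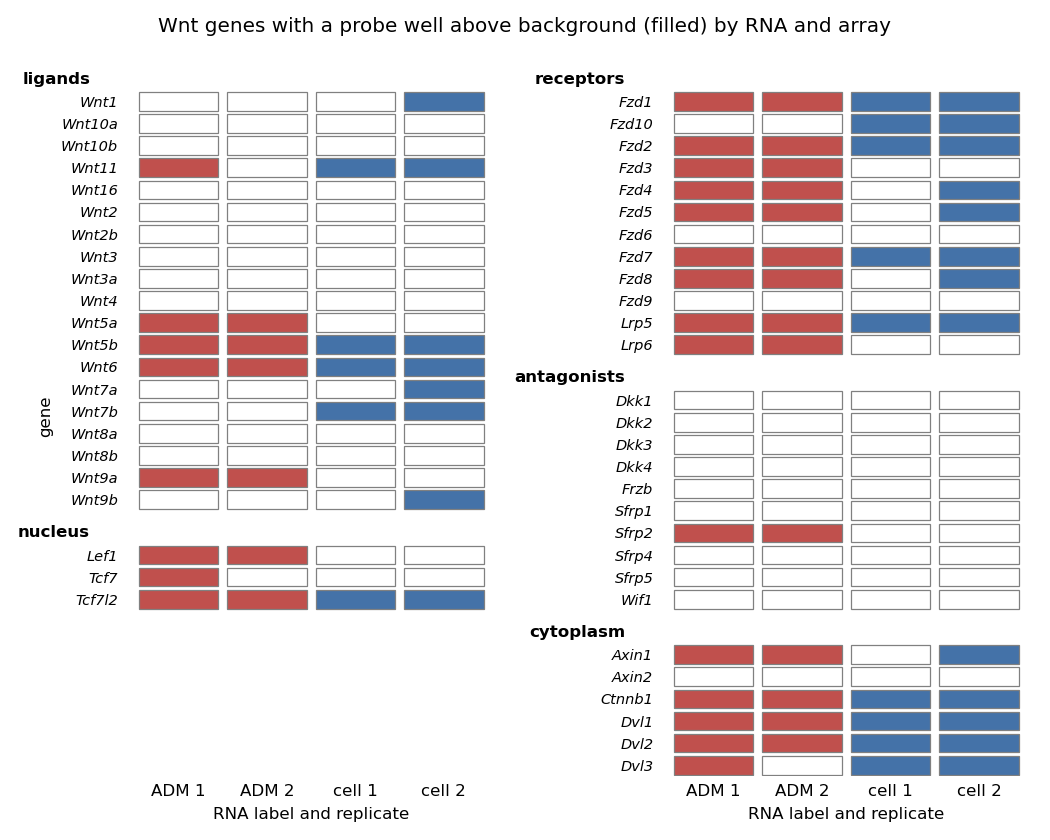
Detection of the 50 Wnt genes by role; columns are the vesicle-labelled (red) and cell-labelled (blue) RNA of replicates 1 and 2, and a filled cell means that at least 1 probe of the gene was well above background. Of the 10 antagonists, Sfrp2 alone was seen, in the vesicle-labelled RNA of both replicates, while 9 of 12 receptors were seen there.

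Among the ligands, Wnt5a, which signals mainly outside the beta-catenin branch, gave net signals of 84.0 and 22.6 scanner units in the vesicle-labelled RNA of replicates 1 and 2. In the cell-labelled RNA its probe gave 0.563 and 5.68, not well above background on either array. That probe has the coordinates chr14:25948244-25952114 in mouse build mm7, far wider than the 60 bases of most probes. Wnt9a was likewise seen in the vesicle-labelled RNA alone, and its brighter probe gave 105 and 29.2 in the vesicle-labelled and 20.8 and 10.1 in the cell-labelled RNA. Wnt5b, a close relative of Wnt5a, was seen in both RNAs on both arrays, at 57.8 and 21.7 in the vesicle-labelled and 17.9 and 42.9 in the cell-labelled RNA. Wnt5b was thus brighter in the vesicle-labelled RNA in replicate 1 and dimmer in replicate 2.

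Wnt6 and Wnt7b were the ligands with a called difference, both on the cell-labelled side. A probe of Wnt6, a ligand reported to restrain adipocyte formation, gave 74.3 and 28.3 scanner units in the vesicle-labelled RNA and 23.1 and 37.2 in the cell-labelled RNA. A probe of Wnt7b, a canonical ligand, gave 28.9 and 12.6 in the vesicle-labelled RNA, not well above background, and 30.8 and 78.5 in the cell-labelled RNA. Net signals of the RNAs overlapped for Wnt6, while those of Wnt7b were lower in the vesicle-labelled RNA on each array. Wnt11, a ligand of the branch independent of beta-catenin, was also seen in the cell-labelled RNA on both arrays, at 31.2 and 67.9, against 64.9 and 16.9 in the vesicle-labelled RNA. Its spot in replicate 1 had an outlying local background and was left out, so Wnt11 has a log2 ratio in replicate 2 alone (-1.64) and was not tested.

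The remaining ligands were not seen on both arrays in either RNA. Wnt10b gave 3.73 and 6.83 scanner units in the vesicle-labelled RNA and 6.98 and 5.90 in the cell-labelled RNA. Negative control spots, which match no transcript, had 95th percentiles of 13.8 and 8.90 in the vesicle-labelled and 10.1 and 7.24 in the cell-labelled RNA, so Wnt10b lay below them in each RNA. Wnt10a, its closest relative, reached 28.2 in the vesicle-labelled RNA of replicate 1 without being well above background. The probe of Wnt1 was printed 10 times, and in the cell-labelled RNA 9 of 10 spots were well above background in replicate 2 but 1 of 10 in replicate 1. Its 10 spots in replicate 2 ran from 16.4 to 26.5 scanner units there, with a median of 19.3. Wnt7a and Wnt9b were likewise seen in the cell-labelled RNA of replicate 2 alone. Over the 10 ligands with no probe well above background, net signals ran from 3.73 to 29.5 in the vesicle-labelled RNA of replicate 1 and from 2.70 to 21.9 in replicate 2, the highest in each being Wnt4. In the cell-labelled RNA they ran from 2.58 to 12.0 and from 1.15 to 15.6.

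The receptors gave the brightest vesicle-labelled signals with a called difference. Fzd1, one of the Frizzleds that can act through beta-catenin, gave 4397 and 1798 scanner units in the vesicle-labelled RNA of replicates 1 and 2 and 19.1 and 48.5 in the cell-labelled RNA. Fzd4, the Frizzled that also binds norrin, gave 1884 and 669 in the vesicle-labelled RNA. In the cell-labelled RNA Fzd4 gave 10.4 and 29.5, well above background in replicate 2 alone. The signals of the RNAs did not overlap for either gene.

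The receptor probes on the other side were dim in both RNAs. A probe of Fzd7, a Frizzled common in stem and progenitor cells, gave 142 and 50.5 scanner units in the vesicle-labelled and 50.6 and 49.6 in the cell-labelled RNA. A probe of Fzd10 gave 33.4 and 15.4 in the vesicle-labelled RNA, not well above background, and 47.3 and 113 in the cell-labelled RNA. The vesicle-labelled net signal of this Fzd7 probe was thus the higher on both arrays, although its ratio below is negative, because the ratio sets a probe against probes of similar brightness. Lrp5, the coreceptor, was seen in both RNAs on both arrays at 3081 and 1200 against 90.7 and 170 scanner units. The Fzd2 probe seen in both RNAs gave 1704 and 806 against 27.1 and 112. Lrp5 and Fzd2 were thus bright in the vesicle-labelled RNA on each array, with no call after loess.

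Further receptors were seen mainly in the vesicle-labelled RNA. Lrp6, the other coreceptor, gave 176 and 74.3 scanner units there and 5.82 and 11.6 in the cell-labelled RNA, not well above background on either array. The brighter Fzd3 probe gave 122 and 43.8 against 7.60 and 2.16, and it too lacked that flag in the cell-labelled RNA. Fzd5 and Fzd8 were seen in the cell-labelled RNA of replicate 2 alone, like Fzd4. Their signals were 58.5 and 32.0 against 14.1 and 20.2 for Fzd5, and 107 and 59.3 against 11.2 and 20.2 for Fzd8. Fzd6 and Fzd9 were not well above background on any array.

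**Figure D2:**
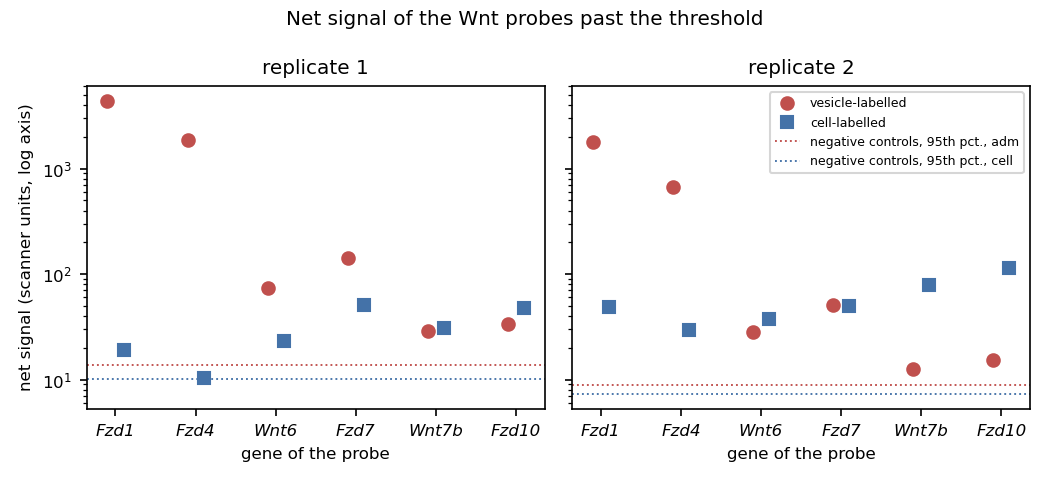
Net signal (scanner units, log axis) of the 6 Wnt gene probes that passed the threshold, vesicle-labelled (circles) and cell-labelled (squares), by replicate; dotted lines are the 95th percentile of negative control spots. Fzd1 reached 4397 and 1798 in the vesicle-labelled RNA, while Wnt7b and Fzd10 were the higher in the cell-labelled RNA on both arrays.

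The secreted antagonists were nearly silent apart from Sfrp2. This soluble Frizzled-like protein, which can bind Wnt ligands, gave 875 and 319 scanner units in the vesicle-labelled RNA and 9.32 and 9.21 in the cell-labelled RNA. Its cell-labelled signal was not well above background on either array. For the other 9 antagonists, Dkk1 to Dkk4, Frzb, Sfrp1, Sfrp4, Sfrp5 and Wif1, 11 probes gave a median of 7.05 and 4.72 in the vesicle-labelled and 7.71 and 7.17 in the cell-labelled RNA. The highest in the vesicle-labelled RNA was Sfrp5, known as an anti-inflammatory adipokine, in replicate 1 (20.2) and Dkk3 in replicate 2 (12.1). Negative controls reached a maximum of 18.1 and 11.4 in the same RNA. A few antagonist probes thus passed the negative controls, Dkk1 in the cell-labelled RNA of replicate 2 (15.7) among them, but none was flagged as well above background, so these antagonists were not detectable at this signal.

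The cytoplasmic relay and the nuclear factors were seen through their common members. The probe of Ctnnb1 (beta-catenin) with 10 spots ran from 3704 to 4706 scanner units over its spots in the vesicle-labelled RNA of replicate 1, with a median of 4253, and from 41.3 to 53.1 in the cell-labelled RNA. In replicate 2 the same spots ran from 1365 to 1667 and from 102 to 135. The ranges of the spots did not overlap between RNAs on either array. Dvl1 and Dvl2 were also seen in both RNAs, the brighter Dvl1 probe at 2802 and 914 against 27.5 and 70.7 and Dvl2 at 427 and 198 against 24.0 and 25.5. Axin1, the scaffold of the destruction complex, was seen in the vesicle-labelled RNA on both arrays, at 515 and 239 against 8.27 and 18.1. Dvl3 was seen in the cell-labelled RNA on both arrays, at 14.4 and 48.6 against 42.4 and 12.8 in the vesicle-labelled RNA. Of the Dvl genes, Dvl3 alone was the higher in the cell-labelled RNA on an array. Axin2, a scaffold whose gene is itself switched on by canonical signalling, was not well above background on any array, at 15.2 and 0.902 in the vesicle-labelled and -0.844 and 3.47 in the cell-labelled RNA. Among the nuclear factors, Tcf7l2, the Tcf factor linked to type 2 diabetes in humans, was seen in both RNAs, while Lef1, at 298 and 121 against 5.97 and 9.49 for its brightest probe, was seen in the vesicle-labelled RNA alone. Tcf7 was seen in the vesicle-labelled RNA of replicate 1 alone.

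The comparison of the RNAs asked which transcripts were over- or under-represented in the vesicle-labelled RNA. It used the log2 ratio of vesicle-labelled over cell-labelled signal after loess, a correction that sets each probe against probes of similar brightness on its array. A probe was tested if it was well above background in the same RNA on both arrays, and called where the Benjamini-Hochberg adjusted p of limma over all probes tested was under 0.05. Of the 71 Wnt probes, 34 passed this filter, 3 of these had a spot left out for its local background, and 31 probes of 23 genes were tested. A probe seen in 1 RNA alone entered through its brighter RNA, so the tested probes do not stand for all members. Of the 31, 2 were higher (6.45%, against 5.52% of all 18117 probes tested) and 4 lower (12.9%, against 10.9%) in the vesicle-labelled RNA, and 25 did not pass. At least 2-fold on both arrays, Fzd1 was higher (1 of 31, against 1.11% of all probes tested) and Fzd10 and a Fzd7 probe lower (2 of 31, against 6.48%). The median over the 31 was 0.03, and over all probes tested 0.07. The Wnt genes as a group thus lay near the shares and median of all probes.

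The calls depended on the scaling and on the spots kept. With the log ratio as processed by the scanner software 12 Wnt probes were higher and 8 lower. Centring on the median, without loess, made limma call 12 higher and 0 lower, with 0 lower also at an unadjusted p under 0.05. Over all probes, 1000 were higher and 1969 lower after loess, 5798 and 2574 with the scanner's ratio, and 10778 and 265 with median centring. These settings moved the median of all probes tested to 0.69 and 2.04, so values under them are given below relative to that median. With spots of outlying local background kept, limma called 0 probes of the whole array, Wnt probes included, and 5 higher and 153 lower had an unadjusted p under 0.05, none of them a Wnt probe.

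**Figure D3:**
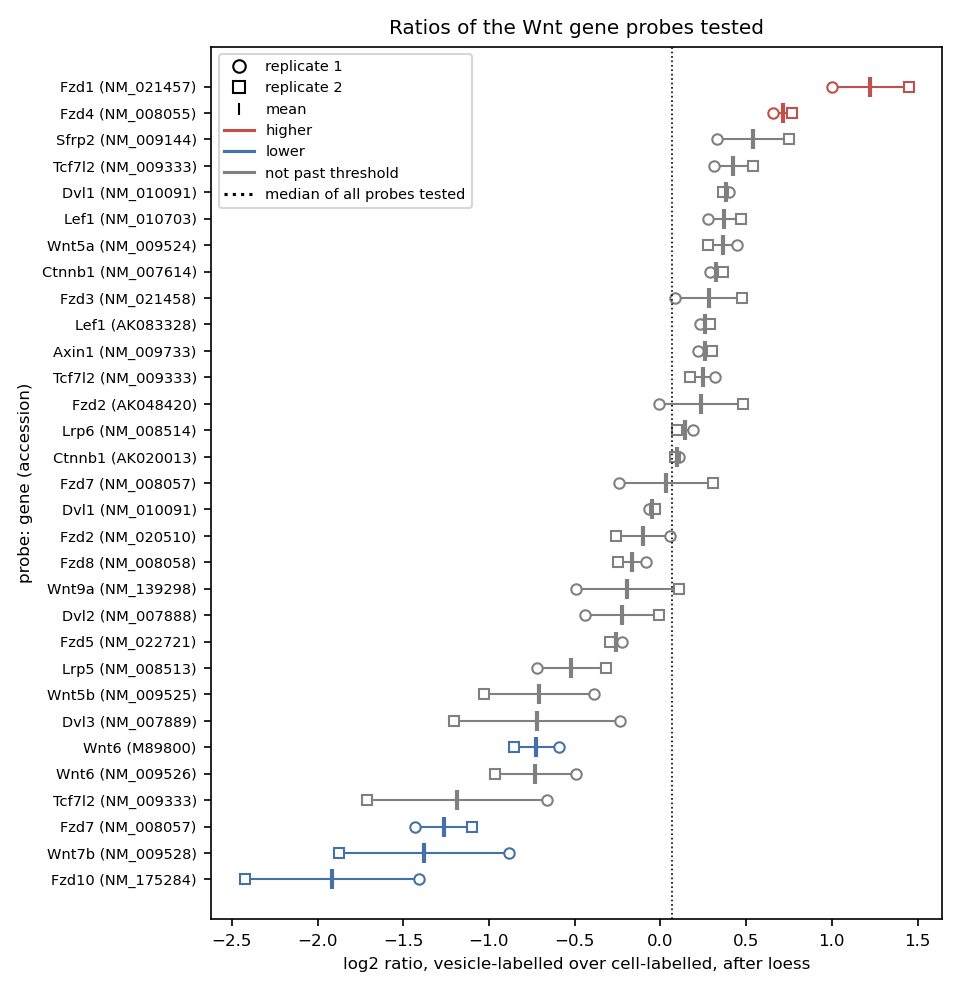
Log2 ratio of vesicle-labelled over cell-labelled signal after loess for the 31 Wnt gene probes tested, in replicate 1 (circles) and replicate 2 (squares) with their mean (bar); colours mark adjusted p under 0.05, and the dotted line is the median of all probes tested (0.07). Fzd1 and Fzd4 lie highest, and Fzd10, Wnt7b and a probe of Fzd7 lowest.

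After loess Fzd1 had the highest ratio of the Wnt probes tested, with log2 values of 1.00 and 1.45 in replicates 1 and 2. With the scanner's ratio it did not rank first, at 2.01 against 2.65 for Axin1, for example. Its mean of 1.22 ± 0.32 (SD, n = 2) is a 2.34-fold difference (limma adjusted p = 0.0249). The probe lies at chr5:4760009-4760068 (mm7). Fzd4 followed with 0.66 and 0.77 (limma adjusted p = 0.0330), from a probe at chr7:85346032-85346091. Fzd4 passed the filter through the vesicle-labelled RNA alone, since its cell-labelled signal was well above background in replicate 2 only. Its size is therefore uncertain, and its p does not stand apart from that filter. Where only probes seen in both RNAs were tested, Fzd4 was left out and Fzd1 was the 1 higher Wnt call. Both replicates of both receptors were positive. Relative to all probes tested, Fzd1 stood at 1.32 with the scanner's ratio and 2.70 with median centring, and Fzd4 at 1.02 and 1.66.

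Fzd10 had the lowest ratio after loess, at -1.41 and -2.43 in the replicates (limma adjusted p = 0.0297). Its probe (chr5:127838196-127838255) was not well above background in the vesicle-labelled RNA and entered the test through the cell-labelled RNA alone. Its size is therefore uncertain, and its p does not stand apart from that filter. A second Fzd10 probe, 943 bases further towards the 3′ end, was not well above background in either RNA, with a highest net signal of 13.3 in the cell-labelled RNA of replicate 2. Wnt7b (chr15:85618386-85618445), which also entered through the cell-labelled RNA alone, had -0.88 and -1.87 in the replicates (limma adjusted p = 0.0485), with the same limits. That call ended with no filter on dim probes (adjusted p = 0.0555), with 1 probe per gene (0.0520) and with robust moderation (0.0583). For both probes the difference was smaller in replicate 1 than in replicate 2, and no fold is given.

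Fzd7 was lower by 1 of its 2 probes, with log2 ratios of -1.43 and -1.10. The mean of -1.27 ± 0.24 (SD, n = 2) is 2.40-fold towards the cell-labelled RNA (limma adjusted p = 0.0198), at chr1:59737506-59737565. The other Fzd7 probe, 1825 bases upstream and seen in the vesicle-labelled RNA alone, had -0.24 and 0.31. The 2 probes of Fzd7 therefore differ, and the call belongs to 1 probe. The other entered the test through the vesicle-labelled RNA alone, so the difference does not stand apart from that filter. Wnt6 had -0.59 and -0.86, a mean of -0.72 ± 0.19 (SD, n = 2) or 1.65-fold towards the cell-labelled RNA (limma adjusted p = 0.0399), at chr1:75024467-75024532. Both replicates of this called Wnt6 probe were negative. A neighbouring Wnt6 probe, 94 bases further, had -0.49 and -0.96 (limma adjusted p = 0.0583). That neighbour was not well above background in the vesicle-labelled RNA and entered the test through the cell-labelled RNA alone. Its sign and p do not stand apart from that filter, so they are no separate support for the call.

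Of the lower probes, Fzd7 and Wnt6 were seen in both RNAs, and relative to the median of all probes tested both stayed below 0 under the other scalings. Fzd7 stood at -4.19 with the scanner's ratio and -1.89 with median centring, and Wnt6 at -2.77 and -2.05. Median centring does not correct for brightness, and other dim probes also fell below the median there. Wnt10b, seen in neither RNA, stood at -2.35, and Wnt5a, positive after loess, at -1.49. The median-centred positions are therefore no separate support for the calls. Fzd10 and Wnt7b also lay below that median, but their vesicle-labelled signal was not well above background and they entered the test through the cell-labelled RNA alone, so no size is given. Without that subtraction Fzd7 turned to 0.15 with median centring and Wnt6 stood at -0.0034.

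**Figure D4:**
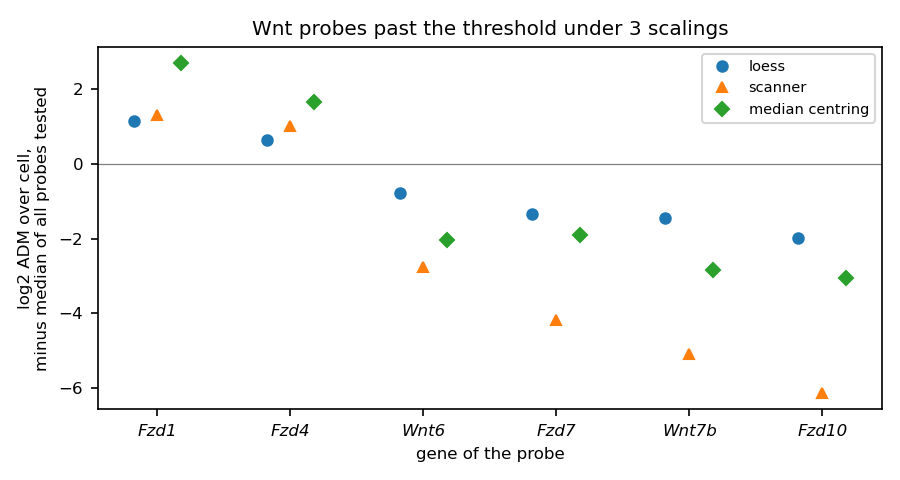
Mean log2 ratio of vesicle-labelled over cell-labelled signal minus the median of all probes tested, for the 6 called Wnt probes under loess (circles), the scanner's own ratio (triangles) and median centring (diamonds). Fzd1 and Fzd4 lie above 0 and the other 4 below 0 under each, but median centring does not correct for a probe's brightness. The size of Fzd10 and Wnt7b is uncertain because their vesicle-labelled signal was not well above background. That of Fzd4 is uncertain because its cell-labelled signal was well above background in replicate 2 alone.

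The remaining Wnt genes did not pass the threshold after loess. Sfrp2, seen in 1 RNA alone, had 0.33 and 0.75 (limma adjusted p = 0.0902). Lrp5, the receptor with the highest mean log2 signal over both RNAs, had -0.72 and -0.32, a mean of -0.52 ± 0.28 (SD, n = 2; limma adjusted p = 0.0928). Both were on 1 side in both replicates without reaching the threshold. Wnt5a, likewise seen in 1 RNA alone, had 0.45 and 0.28 (limma adjusted p = 0.114). Wnt5b stood at -0.71 ± 0.46 (SD, n = 2; limma adjusted p = 0.0875). The 2 relatives thus had opposite signs, a difference that was not tested. Dvl3 had the widest spread of the relay genes, -0.24 and -1.20 in the replicates. In 27 of the 31 tested probes both replicates had the same sign, and their SD ran from 0.01 to 0.74 with a median of 0.22.

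With the scanner's ratio, Sfrp2 (limma adjusted p = 0.0158) and Wnt5a (0.0215) passed on the vesicle-labelled side. Both entered the test through that RNA alone, so no size is given and these p-values do not stand apart from that filter. Under the same setting Wnt5b, seen in both RNAs, passed on the other side at -2.73, or -3.42 relative to all probes tested (limma adjusted p = 0.0197).

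Probes of the same gene did not always show the same ratio, as the plot by probe order shows. In 7 genes more than 1 probe was tested. The probes had the same sign in Ctnnb1, Lef1 and Wnt6 and opposite signs in Dvl1, Fzd2, Fzd7 and Tcf7l2. Each of these 7 genes had at least 1 tested probe that entered through 1 RNA alone. Same or opposite signs therefore do not stand apart from that filter. With the scanner's ratio the probes of Dvl1 (1.20 and 0.67) and Fzd2 (0.13 and 2.58) had the same sign. The widest range was that of Tcf7l2, whose 3 tested probes ran from -1.19 to 0.42. The most upstream of them, 24611 bases of genome before the last, had -0.66 and -1.71 and was seen in both RNAs (limma adjusted p = 0.0674). The probe nearest the 3′ end gave 2680 and 859 scanner units in the vesicle-labelled RNA, against 29.2 and 80.2 in the cell-labelled RNA, with log2 ratios of 0.32 and 0.17 (mean 0.25 ± 0.10, SD, n = 2; limma adjusted p = 0.211). Another Tcf7l2 probe, 1126 bases before that end, was seen in the vesicle-labelled RNA alone. None of the 3 passed the threshold.

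The 2 Lef1 probes seen lay close to the 3′ end, 1083 bases apart, and both were seen in the vesicle-labelled RNA alone. The upstream probe had log2 ratios of 0.28 and 0.47, and the other 0.23 and 0.29 (limma adjusted p = 0.114 and 0.180). The remaining Lef1 probe, 106980 bases before the last, was not well above background. Of Ctnnb1, the 10-spot probe had 0.29 and 0.36 (mean 0.33 ± 0.05, SD, n = 2; limma adjusted p = 0.126). The brightest Ctnnb1 probe, 496 bases further, lost its spot in replicate 1 to an outlying local background and had -0.41 in replicate 2. Dvl1 had -0.05 and 0.38 (limma adjusted p = 0.759 and 0.0915) for an upstream and a downstream probe, 2459 bases apart. Of the 2 probes named Fzd5, one has file coordinates on the strand opposite to the gene. It was well above background in replicate 2 alone and was not tested.

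**Figure D5:**
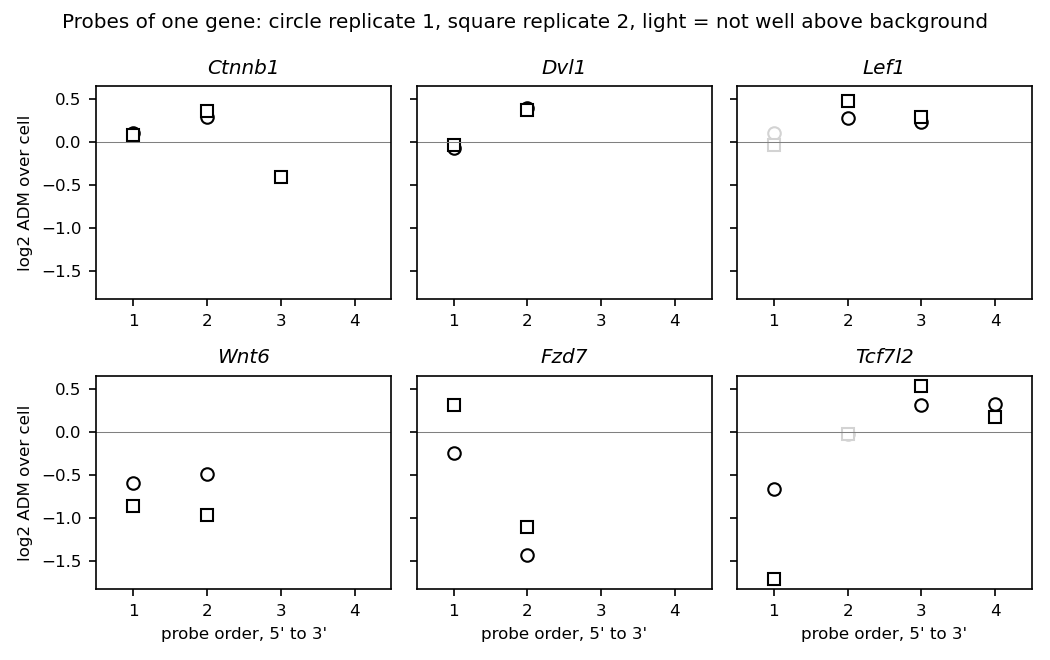
Log2 ratio of vesicle-labelled over cell-labelled signal for each probe of 6 Wnt genes, in order from the 5′ to the 3′ end, in replicate 1 (circles) and replicate 2 (squares); light symbols are probes not well above background in any channel, and a missing symbol is a spot left out. The probes of Wnt6 lie together below 0, while those of Fzd7 and Tcf7l2 fall on both sides. Each of the 6 genes has a tested probe that entered through 1 RNA alone, so these signs do not stand apart from that filter.

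The other genes of the pathway were taken from a list of ligand secretion, R-spondins and their receptors, receptor turnover, coreceptors, further inhibitors, the destruction complex, modulators, transcriptional partners, planar polarity and targets. Of 79 such genes, 58 were seen in the vesicle-labelled and 36 in the cell-labelled RNA on both arrays, larger shares than the 46.4% and 29.3% of all gene names. A gene counts as seen through any of its probes. The list had 156 probes for 79 genes, against 41174 probes for 27962 gene names, so these shares are not strictly comparable. Among 88 tested probes of 59 genes, 5 were higher (5.68%, against 5.52% of all probes tested) and 13 lower (14.8%, against 10.9%) in the vesicle-labelled RNA, and 70 did not pass. On the higher side stood a probe of Apcdd1, a membrane inhibitor of Wnt signalling, at 2.10 ± 0.20 (SD, n = 2, limma adjusted p = 0.00747). Another Apcdd1 probe, seen in the vesicle-labelled RNA alone, had 0.20 and 0.39 in the replicates and did not pass (limma adjusted p = 0.171). Wls (named Gpr177 in the files), which carries Wnt ligands to the cell surface, followed at 1.04 ± 0.06 (SD, n = 2; limma adjusted p = 0.0195). A probe of the corepressor Ctbp1 had 0.61. One of the glypican Gpc4, seen in the vesicle-labelled RNA alone, had 0.64 and 1.08 in the replicates. Relative to all probes tested the called Apcdd1 probe stood at 2.25 and Wls at 1.36 with the scanner's ratio.

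Lower in the vesicle-labelled RNA after loess were probes of Lgr4, an R-spondin receptor, of Apc2 (-2.53) and of Gpc4 (-2.11). The net signal of this Gpc4 probe was the higher in the vesicle-labelled RNA, at 8308 and 2474 scanner units against 370 and 1364. Its ratio is negative only against probes of similar brightness. Also lower was a probe of Apc, a scaffold of the destruction complex, which was seen in the cell-labelled RNA alone, with -2.12 and -3.00 in the replicates. These belong to single probes in several cases. Of the other tested Lgr4 probes, both had positive means and were seen in the vesicle-labelled RNA alone, another 3 tested Apc probes ran from -0.25 to 0.04, and Gpc4 had a probe on either side. The called Lgr4 probe gave 716 and 2748 scanner units in the cell-labelled RNA and 38.3 and 17.2 in the vesicle-labelled RNA. It was well above background in the vesicle-labelled RNA of replicate 1 alone, and so passed the filter through the cell-labelled RNA alone. Its log2 ratios were -6.89 and -8.00 in the replicates. Its size is therefore uncertain, and its call does not stand apart from that filter.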

How the data were processed

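Two-colour Agilent arrays of 2 replicates were analysed, with 250 ng of each RNA labelled per the labels' protocols. Per the file headers, Feature Extraction 10.5.1.1 gave the spot and background intensity values, which were deposited without normalization, and the annotation is that of mm7. The deposited log10 ratio of Cy5 over Cy3 was background-subtracted and dye-normalized by the same software, per the file headers. A deposited table of the series equalled that log10 ratio turned to ADM over cell (largest difference 5e-06), with a median of 0 in each column, so it gave no further setting. Other deposited columns used are 0 or 1 flags of the spots.

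Background was corrected with normexp (offset 50), and log2 ratios were normalized by loess in limma 3.58.1 (R 4.3.3) with control spots at weight 0. Spots flagged as outliers (293 and 253) or with an outlying local background (2303 and 1710) were left out of ratios; net signals leave out the former only. Replicate 2 was sign-turned by its dyes. A probe counted as well above background if 50% or more of its spots carried that flag. The mean ratio was tested against 0 (lmFit, eBayes, 2.91 prior degrees of freedom). Of the Wnt probes, 62 of 71 matched a RefSeq accession of GRCm38.p6; exon and UTR positions in mm7 and probe sequences were not used here. No Wnt spot was saturated, and both arrays share a slide and scan. The steps were run on simulated arrays in which both RNAs had the same base signal, so that run does not cover the imbalance between the RNAs seen here. The members, gene lists, naming rule and the removal of outlying backgrounds were chosen with earlier results of these data known. Named were all members and, of the other pathway genes, the 4 largest calls in each direction. Alternatives were other scalings, offset, filters, probe choice, moderation and leaving out a replicate.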

Additional observations from a re-analysis of the deposited data

How the results depend on the processing

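No paired analysis was possible because none could be added to the main test, which already takes the ratio within each array and so pairs the RNAs. Leaving out a replicate leaves 1 array and no test. Calls (higher and lower) were 1000 and 1969 for all probes, 2 and 4 for the Wnt probes and 5 and 13 for the other pathway probes. With median centring, where limma gave all probes a single variance, they were 10778 and 265, 12 and 0, and 54 and 2. The scanner's log ratio gave 5798 higher for all probes, 12 and 8 for the Wnt probes and 28 higher for the other pathway probes. An offset of 10 gave 1864 and 3059 for all probes and 6 and 7 for the Wnt probes. With outlying local backgrounds kept, limma called 0 in all 3 sets, with 5 higher and 153 lower at an unadjusted p under 0.05 over all probes, and the cause was not tested. Testing only probes seen in both RNAs left 11 Wnt probes, with 1 higher and 2 lower; 1 probe per gene left 3 and 8 other pathway calls; trended moderation gave 1706 higher of all probes. With the flag of a positive and significant signal, 29 Wnt genes were seen in the vesicle-labelled RNA in place of 20, and 24 in the cell-labelled RNA in place of 14.

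Without 1 replicate, probes at least 2-fold higher numbered 207 to 469 of all (201 on both arrays) and those lower 1347 to 2063 (1174). Lower Wnt probes numbered 2 to 6 (2) and higher ones 1 in each (1). Other pathway probes ran from 1 to 3 higher (1) and 7 to 16 lower (7). Wnt genes seen ran from 20 to 23 in the vesicle-labelled and from 14 to 21 in the cell-labelled RNA, and the higher counts of 2-fold probes and of cell-labelled detection came without replicate 1.

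Signs turned, mostly of ratios that were not called, with median centring for Dvl2 (1.83), Fzd5 (0.17), Fzd8 (0.66), Lrp5 (3.14), Wnt9a (0.43), Fzd2 (3.10), Dvl1 (1.61) and the called Fzd7 probe (0.15), where all probes tested had a median of 2.04. They turned with the scanner's ratio for Fzd8 (0.93), Wnt9a (0.60), Fzd2 (0.13) and Dvl1 (1.20), and with outlying backgrounds kept for Fzd2 (0.0047).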
